A study of Mus musculus with 8 samples.

Results

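The 8 genes of osteoclast control and osteoclast identity described here, in cultured mouse osteoblasts labelled as lacking Lrp5 or as carrying it, were Tnfsf11, Tnfrsf11b, Tnfrsf11a, Csf1, Csf1r, Lif, Acp5 and Ctsk. Members were chosen by gene symbol, as all probes that the platform annotation gives to any of the 8 genes. This gave 9 of the 25697 probes on the array, for 7 genes: 3 probes for Lif and 1 for each of the others. No probe was named for Csf1r, the receptor of macrophage colony-stimulating factor, and it was not analysed here. Of these 7 genes, 5 passed the filter on dim probes, which asked for 4 or more arrays with a detection p below 0.01, and were among the 7041 genes tested.

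The cells were primary osteoblasts, which form bone, taken from the calvaria (skull vault) of C57Bl/6 mice, on 4 arrays labelled Lrp5-/- and 4 labelled Lrp5+/+. Adenovirus encoding Cre or GFP was given 48 hours ahead of differentiation, which lasted 7 days in ascorbic acid (50 ug/ml) and beta-glycerol phosphate (10 mM). Which virus went to which group is not stated in the labels, so an effect of the virus and an effect of the genotype cannot be told apart here. Whether replicate arrays represent different mice or dishes is not stated either, so p-values reflect only array-to-array spread, which may be technical. The groups are called knockout-labelled and control.

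Osteoclasts are bone-resorbing cells that form by fusion of precursors of the monocyte and macrophage lineage. Their formation needs M-CSF, the product of Csf1, which keeps precursors alive through its receptor, and RANKL, the product of Tnfsf11, which drives differentiation through the receptor RANK, the product of Tnfrsf11a. Cells of the osteoblast lineage make M-CSF and RANKL and also secrete osteoprotegerin (OPG, the product of Tnfrsf11b), a decoy receptor that binds RANKL; in mice the OPG gene is a known target of Wnt and beta-catenin signalling, for which Lrp5 is a coreceptor. LIF, a cytokine of the interleukin-6 family that signals through gp130, can raise RANKL in stromal cells, while tartrate-resistant acid phosphatase (Acp5) and cathepsin K (Ctsk) are enzymes of the resorbing cell.

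Each of the 3 ligand genes shown had an entry in the RefSeq promoter table (build GRCm38.p6). Their directly upstream sequences are printed to give the letters from which these ligand transcripts are started. Entries of 6 of the 8 members were searched, and none was listed for Tnfrsf11b. Each run is the 250 bases before the annotated start, 5' to 3' on the strand of the gene: chr14:78308044-78308293 on the minus strand for Tnfsf11, chr3:107760470-107760719 on the minus strand for Csf1 and chr11:4257318-4257567 on the plus strand for Lif. Capitals mark exact matches, on either strand, of the TCF/LEF core CTTTGA, the NF-kB consensus, whose reverse complement is spelled by the first capitals of the Csf1 run, and the AP-1 consensus TGACTCA, none of which overlapped another.
Tnfsf11: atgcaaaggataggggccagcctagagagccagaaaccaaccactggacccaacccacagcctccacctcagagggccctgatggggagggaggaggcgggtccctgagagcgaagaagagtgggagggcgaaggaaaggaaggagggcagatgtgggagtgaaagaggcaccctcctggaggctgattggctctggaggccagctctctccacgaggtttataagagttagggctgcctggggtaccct
Csf1: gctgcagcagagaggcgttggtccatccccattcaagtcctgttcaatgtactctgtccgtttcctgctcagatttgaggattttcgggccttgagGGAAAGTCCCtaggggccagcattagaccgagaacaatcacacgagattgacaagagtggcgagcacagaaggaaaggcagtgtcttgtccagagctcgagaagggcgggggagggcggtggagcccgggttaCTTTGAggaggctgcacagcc
Lif: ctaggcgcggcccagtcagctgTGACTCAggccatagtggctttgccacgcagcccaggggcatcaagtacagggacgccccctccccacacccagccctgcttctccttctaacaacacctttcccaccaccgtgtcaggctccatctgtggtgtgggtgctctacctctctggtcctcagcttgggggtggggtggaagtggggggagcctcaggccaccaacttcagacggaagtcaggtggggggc
The Csf1 run held an NF-kB consensus, read on the opposite strand, 154 to 145 bases before the start and a TCF/LEF core 21 to 16 bases before it. The Lif run held an AP-1 consensus 228 to 222 bases before the start, and these letters were not in the Tnfsf11 run. Of the 6 members searched, 2 held the TCF/LEF core, Csf1 and also Acp5, on the opposite strand 239 to 234 bases before the start. Over the 32851 promoters of the table, 13.8% held the TCF/LEF core, 0.14% the NF-kB consensus and 4.46% the AP-1 consensus in the same 250 bases. A match is a description of letters and not of a bound site.

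Between 37.7% and 40.3% of probes were detected per array. The single Lrp5 probe stood near background, at 5.54 ± 0.12 log2 for control against 5.87 ± 0.26 for knockout-labelled arrays (SD, n = 4), with detection on 1 control array and on 2 knockout-labelled ones. Its position relative to the deletion is unknown here, and it does not check the labels. Of 14 osteoblast markers, 12 had a named probe. Of these 12, 6, among them Col1a1, Sparc, Sp7 and Alpl, were detected on all 8 arrays, and 5 (Bglap, Dlx5, Postn, Phex and Dmp1) were detected on none.

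None of the 5 members tested passed the test between the groups. Lif was highest in size of change, 1.26-fold higher in the knockout-labelled arrays, followed by Ctsk (1.13-fold higher) and Csf1 (1.12-fold lower), while Tnfsf11 and Tnfrsf11b lay 1.06-fold and 1.07-fold higher. With limma and Benjamini-Hochberg adjustment over all 7041 genes, 8.62% of genes passed an adjusted p of 0.05, against 0 of 5 members; 3.54% of genes were called higher and 5.08% lower. At an unadjusted p under 0.05 the members counted 3 of 5, against 25.8% of all genes, and the exact permutation test gave 1 of 5. With 4 against 4 arrays that test can give a p under 0.05 only where the groups do not overlap, as in 16.8% of all genes. Over all genes 249 were called higher and 358 lower, and 338 were called higher and 315 lower with each array scaled to its 75th percentile. All values below are log2 signals after background correction and quantile normalization, unless raw signals are named.

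**Figure D1:**
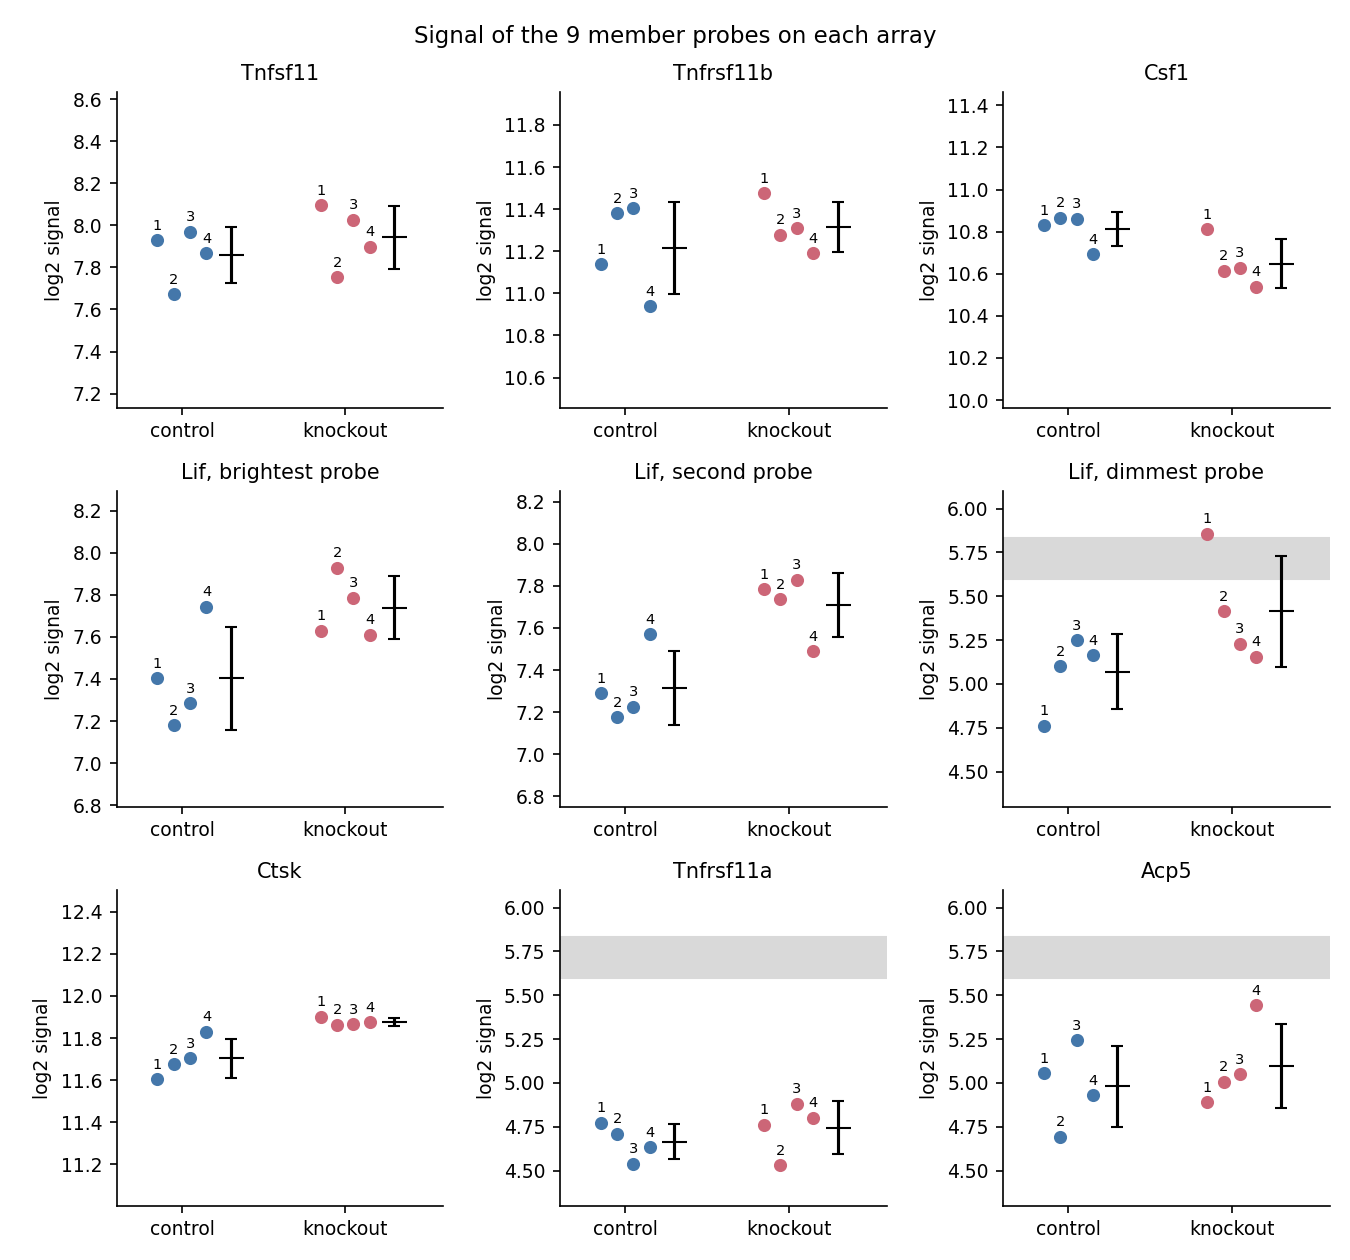
Log2 signal (vertical axis) of each of the 9 member probes on the 4 control and 4 knockout-labelled arrays, numbered by replicate, with the mean and SD beside each group. The grey band is the range over arrays of the dimmest detected probe (5.60 to 5.83); Tnfrsf11a, Acp5 and the dimmest Lif probe lie below it apart from 1 Lif value, and the groups are apart only for Ctsk.

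Tnfsf11, the gene of RANKL, was detected on all 8 arrays at raw signals between 314 and 387, which is 2.02 to 2.26 times the dimmest detected signal of the same array. The control arrays stood at 7.93, 7.67, 7.97 and 7.87 log2 and the knockout-labelled arrays at 8.09, 7.75, 8.03 and 7.90. The array numbered 2 was lowest in either group, 2 knockout-labelled arrays lay above every control, and the groups overlapped. The difference was 0.08 log2 (SE 0.09; 95% interval -0.12 to 0.29; limma adjusted p = 0.6). It was 0.02 without control array 2, 0.03 without knockout-labelled array 1 and 0.15 without knockout-labelled array 2.

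Tnfrsf11b, the gene of the RANKL decoy OPG, was bright on every array, at up to 17.9 times the dimmest detected signal. Control arrays stood at 11.14, 11.38, 11.40 and 10.94 log2, and knockout-labelled arrays at 11.48, 11.28, 11.31 and 11.19. The control arrays were the more spread of the groups (SD 0.22 against 0.12, n = 4), the lowest value being control array 4 and the highest knockout-labelled array 1. The difference was 0.10 log2 (SE 0.11; 95% interval -0.14 to 0.34; limma adjusted p = 0.603), and without control array 4 it was 0.0062. The residual SD of Tnfrsf11b, 0.18, was larger than the median of 0.11 over all genes tested, and 80.0% of genes had an equal or smaller one.

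The RANKL to OPG balance is often read as a ratio, and its change between groups can be taken from these probes although its level cannot. On the log2 scale, Tnfsf11 minus Tnfrsf11b differed by -0.01 between the group means. The SD of this difference was 0.28 over the control arrays and 0.11 over the knockout-labelled arrays (n = 4), so the change lay far inside the spread of either group.

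Csf1, the gene of M-CSF, was the only member tested that was lower in the knockout-labelled arrays. The control arrays stood at 10.83, 10.87, 10.86 and 10.69 log2 and the knockout-labelled arrays at 10.81, 10.62, 10.63 and 10.54. Of the knockout-labelled arrays, 3 lay below every control, and knockout-labelled array 1 lay above control array 4. The raw signals, before arrays were put on a common scale, were 1965 ± 155 for control against 1657 ± 90.4 for knockout-labelled arrays (SD, n = 4). Raw means still hold differences in brightness between arrays. Those of Tnfsf11 (353.9 in control against 342.0) and Tnfrsf11b (2580.5 against 2569.1) also lay lower in knockout-labelled arrays, though both were higher after normalization. Those of Ctsk and the brightest Lif probe lay higher. The difference of Csf1 was -0.16 log2 (SE 0.07; 95% interval -0.33 to -0.00057), which did not pass after adjustment (limma adjusted p = 0.192; the exact permutation test, two-sided, gave 0.0571). It lay between -0.22 and -0.12 under all alternatives tried, at adjusted p-values from 0.0877 to 0.343.

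Lif showed the largest change of the members, and its probes gave different calls. The brightest probe, which stood for the gene in the test, read 7.40, 7.18, 7.28 and 7.74 log2 in control and 7.63, 7.93, 7.79 and 7.61 in knockout-labelled arrays. Control array 4 was the highest of its group and lay inside the knockout-labelled range, whereas the other 3 control arrays lay below all knockout-labelled ones. The difference was 0.34 log2 (SE 0.12; 95% interval 0.07 to 0.60), not past the threshold (limma adjusted p = 0.112; the exact permutation test, two-sided, gave 0.0857).

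A second Lif probe, listed for the same transcript accession, read 7.29, 7.18, 7.23 and 7.57 log2 in control and 7.78, 7.74, 7.83 and 7.49 in knockout-labelled arrays. Here 3 knockout-labelled arrays lay above every control and knockout-labelled array 4 lay below control array 4. With each of 9443 named detected probes fitted on its own, this probe was higher by 0.39 log2 (SE 0.10) and passed (limma adjusted p = 0.0463), where 7.22% of all probes passed; the mean of both probes was higher by 0.37 and did not pass (adjusted p = 0.0573). The third Lif probe, listed for another accession, was detected on 0 control arrays and 1 knockout-labelled array and stood at 5.07 ± 0.21 and 5.41 ± 0.32 log2 (SD, n = 4). Both detected probes lay at only 1.62 to 2.22 times the dimmest detected signal, and the change of the brightest probe was 0.21 with no background correction. Without control array 4 its difference was 0.45 log2 and passed (limma adjusted p = 0.0196), and it lay between 0.26 and 0.38 with any other array left out.

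Ctsk, the gene of the collagen-cleaving protease cathepsin K, was the only member tested whose groups did not overlap. The control arrays stood at 11.61, 11.67, 11.71 and 11.83 log2 and the knockout-labelled arrays at 11.90, 11.86, 11.87 and 11.88. All 4 knockout-labelled arrays lay above every control and within a narrow range (SD 0.02 against 0.09, n = 4), the nearest control again being array 4. Over all genes tested, 16.8% had groups that did not overlap, against 1 of 5 members. The difference was 0.17 log2 (SE 0.06, 95% interval 0.03 to 0.31) and did not pass after adjustment (limma adjusted p = 0.114). The exact two-sided permutation p was 0.0286, the smallest that 4 against 4 arrays can give. Any gene whose groups do not overlap has this value, so it adds nothing to the lack of overlap. Without control array 4 it was 0.21 and passed (adjusted p = 0.0487).

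**Figure D2:**
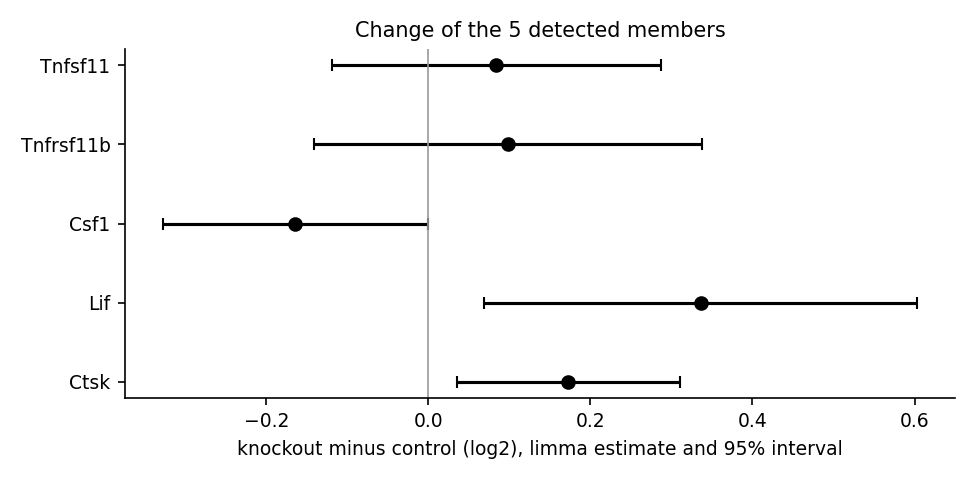
Knockout-labelled minus control difference in log2 (horizontal axis) of the 5 members tested, with the limma estimate as a point and its unadjusted 95% interval as a bar. The intervals of Tnfsf11 and Tnfrsf11b include 0, that of Csf1 ends at -0.00057, and those of Lif and Ctsk lie above 0 before adjustment over all genes.

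**Figure D3:**
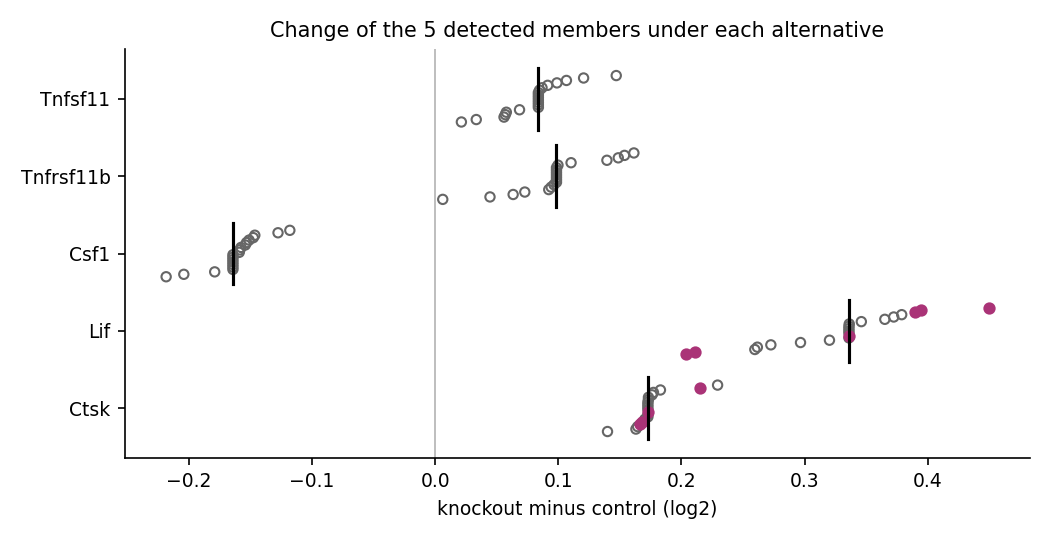
Knockout-labelled minus control difference in log2 (horizontal axis) of each of the 5 members under every alternative processing or left-out array; filled points passed a limma adjusted p of 0.05 and the black bar is the value in the text. Filled points occur for Lif and Ctsk only, and the points of each member keep their sign.

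The remaining members stood at background. Acp5, the gene of the enzyme by which osteoclasts are stained, was detected on no array, with detection p-values from 0.0326 to 0.296 and signals of 0.803 to 0.93 times the dimmest detected one. Its values were 4.98 ± 0.23 log2 for control against 5.10 ± 0.24 for knockout-labelled arrays (SD, n = 4). Tnfrsf11a, the gene of RANK, was also detected on no array (detection p from 0.148 to 0.697) and stood at 4.66 ± 0.10 and 4.74 ± 0.15 log2 (SD, n = 4). The groups of both genes overlapped, and no fold is given where both groups are at background.

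Among 10 osteoclast markers, 2 were detected on all 8 arrays and 8 on none. The detected ones were Ctsk and Mmp9, a matrix metalloproteinase, whose change was 0.02 log2 (SE 0.08; limma adjusted p = 0.908). The calcitonin receptor Calcr, the fusion proteins Dcstamp and Ocstamp, the receptor Oscar, the integrin subunit Itgb3 and the proton pump subunit Atp6v0d2 were at background with Acp5 and Tnfrsf11a. The summed background-corrected signal of the 10 probes was 3546 to 3995 in control and 4103 to 4206 in knockout-labelled arrays, but Ctsk alone made up 87.4% to 90.7% of it. Without Ctsk, a sum chosen after seeing the data, the ranges were 370.5 to 446.4 and 394.1 to 446.6 and overlapped. In such bulk samples, fewer cells of a type and less RNA per cell cannot be told apart.

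Markers of macrophages, the lineage of osteoclast precursors, were detected in these cultures, and 8 of 10 tested lay lower in the knockout-labelled arrays. Of 22 listed, 20 had a named probe and 10 were tested; 1 fell and 0 rose, where 5.08% of all genes were called lower and 3.54% higher. At an unadjusted p under 0.05 there were 7 of 10 (6 lower, 1 higher), against 25.8% of all genes (943 lower and 876 higher of 7041). The median was -0.21 log2 against 0.000091 over all genes tested, of which 3519 of 7041 lay below 0. Laptm5, a lysosomal membrane protein of blood cells, fell 1.38-fold, from 9.03, 9.13, 8.99 and 9.01 log2 in control to 8.69, 8.44, 8.53 and 8.62 in knockout-labelled arrays (limma adjusted p = 0.0042). Of the 9 that did not pass, Tyrobp differed by -0.27, Adgre1, which encodes F4/80, by -0.26, Cd52 by -0.22, lysozyme (Lyz2) by -0.21, Aif1 by -0.21, Cd14 by -0.12 and Fcgr3 by -0.06 (limma adjusted p from 0.0976 to 0.864). The tetraspanin Cd53 and the protease cathepsin S (Ctss) lay the other way, by 0.28 and 0.17 (adjusted p = 0.166 and 0.503). Tyrobp was detected on 3 control arrays and 1 knockout-labelled array. It thus met the filter on dim probes chiefly through the group where it was higher, which favours its place in the counts of lower genes.

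On a shorter list of 15 macrophage markers, which holds neither Cd53 nor Ctss, the summed signal of 12 probes was 3335 to 3747 in control and 2741 to 3302 in knockout-labelled arrays. Lyz2 made up 53.3% to 58.1% of it, and Ptprc, Itgam, Fcer1g, C1qa and C1qc were detected on no array. Over the 20 probes of the longer list the sums were 4067 to 4527 and 3428 to 4041, and without Lyz2 they were 2266 to 2507 and 1891 to 2120; these sums were also chosen after seeing the data. Ctsk lay higher, and the part of these cells in the values of Csf1, Lif and Ctsk was not tested.

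The genes around the members were counted in hand-made lists. Of 20 genes of osteoclast differentiation and resorption, 9 were tested and 0 passed in limma, with a median of -0.03 log2. At an unadjusted p under 0.05 there was 1 of 9, against 25.8% of all genes. Cd44, an adhesion receptor, differed by 0.28 (limma adjusted p = 0.0595) and the kinase Src by 0.17 (adjusted p = 0.256). Cd44 passed without knockout-labelled array 3 (adjusted p = 0.0425) and under 6 other settings, among them 75th percentile scaling (0.0348). Its other detected probes changed by 0.35, 0.08 and -0.092. The acid-secretion genes Tcirg1, Clcn7 and Ostm1, which many cell types use in lysosomes, were detected on all arrays and differed by 0.16, -0.05 and -0.06.

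Of 22 genes of RANK signalling, 15 were tested and 0 passed in limma, with a median of 0.03. At an unadjusted p under 0.05 there were 4 of 15 (2 higher, 2 lower), against 25.8% of all genes. The adaptor Sqstm1, which binds TRAF6, differed by -0.30 and the AP-1 subunit Fos by -0.18 log2 (limma adjusted p = 0.0949 and 0.123), and Fos passed without knockout-labelled array 4 (adjusted p = 0.0434). Traf6 itself, the main adaptor of RANK, differed by 0.15 (adjusted p = 0.324). The 2 higher at an unadjusted p under 0.05 were the AP-1 subunit Jun, by 0.19, and Tab2, by 0.20 (limma adjusted p = 0.129 and 0.152). Of 13 further genes of the M-CSF receptor pathway, 8 were tested and 0 passed in limma (median -0.01). The count at an unadjusted p under 0.05 was 1 of 8, against 25.8% of all genes. Tyrobp, the gene in that count, and Plcg2, signalling proteins of myeloid cells, were at the edge of detection. They differed by -0.27 and -0.26 (limma adjusted p = 0.131 and 0.222). Tyrobp was detected on 3 control arrays and 1 knockout-labelled array, and Plcg2 on 4 and 2. Both thus met the filter on dim probes chiefly through the group where they were higher, which favours a lower value in this list. Il34, the other ligand of that receptor, differed by 0.06 (adjusted p = 0.851).

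The gp130 list, the pathway of LIF, had 12 genes tested, of which 1 rose and 0 fell, against 3.54% and 5.08% of all genes. At an unadjusted p under 0.05 there were 6 of 12 (4 higher, 2 lower), where all genes gave 25.8%; 9 were above 0 and the median was 0.16 log2. Jak2, a kinase bound to gp130 receptors, rose 1.18-fold, from 10.77, 10.62, 10.69 and 10.65 log2 in control to 10.87, 10.91, 10.88 and 11.04 in knockout-labelled arrays, with no overlap (limma adjusted p = 0.0406). Its call was lost on leaving out any single array (adjusted p from 0.0514 to 0.106), with no detection filter (0.0807) and with detection asked for on 1 array only (0.0506). The phosphatase Ptpn11 differed by -0.17 (limma adjusted p = 0.0943), the kinase Tyk2 by 0.17 (0.178), the oncostatin M receptor Osmr by 0.23 (0.0569), interleukin 6 (Il6) by 0.22 (0.135), gp130 itself (Il6st) by 0.18 (0.239) and the feedback inhibitor Socs3 by -0.16 (0.177). The LIF receptor Lifr was detected on no array by the brightest of its 3 probes.

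Of 32 other stromal regulators of osteoclasts, 20 were tested, and 2 rose and 1 fell, against 3.54% and 5.08% of all genes. At an unadjusted p under 0.05 there were 10 of 20 (7 higher, 3 lower; 25.8% of all genes), and the median was 0.08 log2. Ptgs2, the inducible prostaglandin synthase, rose 1.37-fold, from 8.74, 8.81, 8.63 and 8.77 log2 in control to 9.19, 9.52, 8.97 and 9.09 in knockout-labelled arrays (limma adjusted p = 0.0296). Interleukin 1 beta (Il1b) rose 1.22-fold, from 7.80, 7.83, 7.66 and 7.91 to 8.04, 7.99, 8.06 and 8.24 (adjusted p = 0.0473). For either gene all 4 knockout-labelled arrays lay above every control. Wnt5a, a noncanonical Wnt ligand that raises RANK in osteoclast precursors of mice, fell 1.34-fold, from 7.20, 7.53, 7.24 and 7.29 to 6.86, 6.76, 6.92 and 7.04 (adjusted p = 0.0184).

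These calls depended on single arrays, on probes and on the filter on dim probes. That of Ptgs2 was lost without control array 1 (adjusted p = 0.067), 2 (0.0583) or 3 (0.081) or knockout-labelled array 1 (0.064). That of Il1b was lost without any array other than control array 4 (limma adjusted p up to 0.112), and that of Wnt5a without knockout-labelled array 2 (0.0548). With no detection filter Ptgs2 and Il1b did not pass (adjusted p = 0.0672 and 0.0979), nor did Il1b with detection asked for on 1 array only (0.0594). The other detected probe of Wnt5a changed by -0.02, and the mean of both probes changed by -0.22 (adjusted p = 0.196). With the replicate number added to the fit as a block, Wnt5a did not pass, the 1 listed gene called lower being Laptm5. With each detected probe fitted on its own, the tested probes of Il1b (adjusted p = 0.056) and Jak2 (0.0503) did not pass. The other detected probe of Jak2 was higher by 0.26 and passed in that fit (limma adjusted p = 0.0385), where 7.22% of all probes passed. Among the regulators that did not pass, Csf2, the gene of GM-CSF, differed by 0.42, interleukin 1 alpha (Il1a) by 0.37, the osteoprotective semaphorin Sema3a by 0.28 and the adhesion molecule Icam1 by -0.24 (adjusted p = 0.128, 0.14, 0.138 and 0.092).

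Of 20 known regulators of RANKL or OPG expression, 9 were tested and 0 passed in limma, with a median of 0.05 log2. The count at an unadjusted p under 0.05 was 3 of 9, against 25.8% of all genes. The transcription factor Atf4 differed by 0.32 (limma adjusted p = 0.0978) and the connexin Gja1 by 0.21 (adjusted p = 0.0709), and Atf4 passed without control array 1 (0.0492). The vitamin D receptor Vdr and the parathyroid hormone receptor Pth1r, through which these hormones raise RANKL, differed by 0.15 and 0.26 (adjusted p = 0.205 and 0.249). Beta-catenin (Ctnnb1) differed by -0.17 (adjusted p = 0.164). Its partner Lef1 was detected on no array, while another partner, Tcf7l2, was detected on all arrays and differed by 0.02 (limma adjusted p = 0.888).

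**Figure D4:**
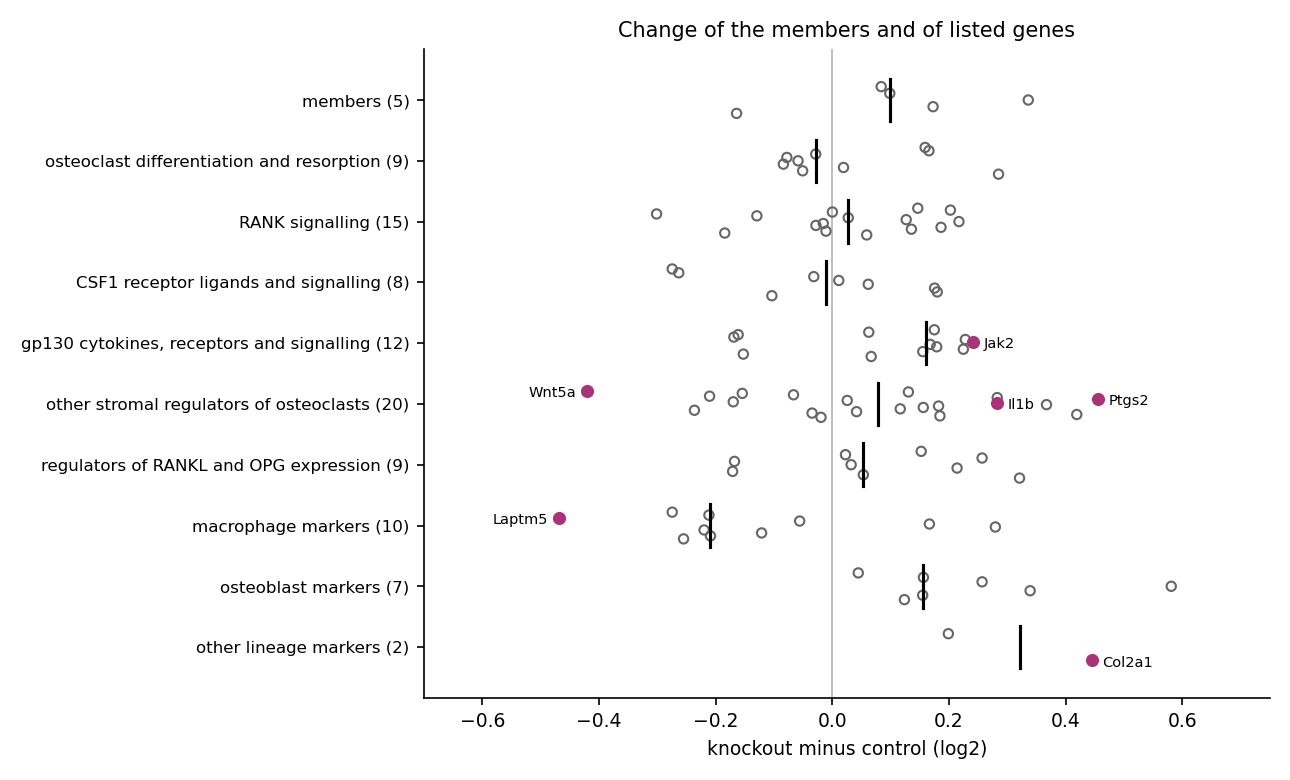
Knockout-labelled minus control difference in log2 (horizontal axis) of the members and of each listed gene tested, with the number tested in brackets; filled points passed a limma adjusted p of 0.05, open points did not, and black bars are list medians. No member and 6 other listed genes passed, among them Wnt5a, Il1b, Ptgs2 and Jak2.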

How the data were processed

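Total RNA from 8 samples was run on Illumina arrays after biotin labelling (labels' protocols). The submitters' processing notes name GenomeStudio without a version. The authors deposited an intensity and a detection p-value column per array for 25697 probes, per the file headers. The intensities were neither normalized nor background-subtracted, and the deposited detection p-value column rose with the signal, so 1 minus it was used. The authors also deposited quantile-normalized log2 values, used as an alternative; any further step is not stated.

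Intensities were processed with neqc (offset 16) of limma 3.58.1 in R 4.3.3. A probe was kept if 4 or more arrays had a detection p below 0.01, and the brightest kept probe of a gene was tested with lmFit and eBayes without covariates, adjusted over 7041 genes (Benjamini-Hochberg, threshold 0.05, two-sided). The offset pulls changes of dim probes toward 0, whereas the background step widens them. Lif changed by 0.34 log2 in the main fit against 0.21 with no background correction, and Tyrobp by -0.27 against -0.09. Array number, 4 per group, limits the precision; 0 of 28 array pairs were identical. The members and gene lists were chosen with earlier results of these data known. Genes named are the members; of each list, up to 4 past the threshold with the smallest p, or the 2 with the smallest p where none passed; Lrp5; and the listed markers of osteoclasts, macrophages and osteoblasts. Genes outside this rule (Traf6, Il34, Osmr, Il6, Il6st, Socs3, Lifr, Csf2, Il1a, Sema3a, Icam1, Tcirg1, Clcn7, Ostm1, Vdr, Pth1r, Ctnnb1, Lef1, Cd52, Cd53, Ctss, Fcgr3, Ptpn11, Tyk2 and Sox9, and the other-lineage markers detected on no array) were named after their values were seen. Jun, Tab2 and Tcf7l2 were also named after their values were seen. No list was tested as a set. The steps were tested on simulated data. Promoter letters are from RefSeq; no gene coordinates of the array are given.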

Additional observations from a re-analysis of the deposited data

How the results depend on the processing

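Over 101 recomputed values of the 5 members, 91 kept their direction and their side of the threshold, 10 passed that had not, and 0 changed direction. The members past the threshold numbered 2 with no background correction, with the authors' log2 table and with a trended and robust prior (Lif and Ctsk each time, higher), 1 with array weights (Lif) and 1 with each probe on its own (Lif), and 0 to 2 with 1 array left out, 2 of them without control array 4 (Lif and Ctsk). The cause was not tested. The 607 genes past the threshold became 979 with no background correction, 971 with the authors' table, 376 with no detection filter, where 16593 genes were tested, 965 with the trended prior and 323 to 718 with 1 array left out. Single arrays whose removal cut the count more than 1.5 times were control 1 (367), 2 (323) and 3 (329) and knockout-labelled 1 (395), 2 (326) and 3 (392). The 6 other listed genes past the threshold became 21, 13, 11, 21 and 19 with no background correction, normexp with offset 50, 75th percentile scaling, the authors' table and the trended prior, and 3 to 8 with 1 array left out. Of 323 values of other named genes 1 changed direction, a Cd44 probe taken on its own (-0.092). With the replicate number as a block, 408 genes, 0 members and 4 other listed genes passed. The numbers share nothing in the labels but the number, and deviations of same-numbered arrays correlated at -0.03 to 0.08, so they were not taken as pairs. Signals near the dimmest detected one limit what can be said of Lif and Tnfsf11, and nothing can be said of changes in Acp5 or Tnfrsf11a.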

Other observations

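Osteoblast markers lay above 0 in all 7 genes tested, where 3522 of all 7041 genes did, and 0 passed in limma. At an unadjusted p under 0.05 there were 2 of 7, against 25.8% of all genes, and the median was 0.16 log2. The collagen subunit Col1a2 differed by 0.34 and the bone sialoprotein Ibsp by 0.58 (limma adjusted p = 0.0561 and 0.07). Detection of Ibsp was limited to 1 control array against 4 knockout-labelled ones, which leaves its change imprecise. Ibsp met the filter on dim probes through the group where it was higher, which favours its place in both counts. It passed without control array 2 (limma adjusted p = 0.0137).

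Of 14 markers of other lineages, 2 were tested and 1 rose. Col2a1, the collagen of cartilage, was detected on all 8 arrays and rose 1.36-fold in the knockout-labelled arrays, from 10.29 ± 0.14 to 10.73 ± 0.04 log2 (SD, n = 4; limma adjusted p = 0.00757), and it passed under every alternative tried. The cartilage transcription factor Sox9 differed by 0.20 (adjusted p = 0.356), and the cartilage proteoglycan Acan, the fat cell markers Adipoq and Plin1 and the endothelial markers Pecam1 and Cdh5 were detected on no array.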
